A study of Mus musculus with 9 samples.

Results

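Malat1, Neat1, Gas5, Snhg1, Snhg6, Snhg8 and Snhg12 are long noncoding RNAs that either work inside the nucleus or carry small nucleolar RNAs (snoRNAs) in their introns. These 7 genes, out of 16500 listed, were picked by symbol after results from the same libraries had been seen, partly because 1 library stands apart in some of them. Their values are therefore given as a description with no p-values, and counts of calls from the fit over all genes are set only beside the share of all genes called. All 7 were among the 13096 genes that reached at least 1 CPM (counts scaled so that every library has the same total) in at least 3 libraries.

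The cells were primary mouse CD4+ T cells of the C57BL/6 strain, grown in RPMI-1640 medium with fetal bovine serum, infected with a retroviral vector and sequenced as paired ends. There were 3 libraries in each of 3 groups: NFAT2_CARIT, NFAT2_CA and Control, where Control cells carried the CTRL vector, so that every group had gone through transduction. Nfatc1 encodes NFAT2, a transcription factor switched on when the calcium-dependent phosphatase calcineurin acts on it. CA denotes a form that needs no calcineurin, and RIT denotes further changes that weaken its binding to DNA together with its partner AP-1. The labels give no age of the mice, no time after infection and no sorting of infected cells, and they do not say whether replicates came from separate mice or cultures, so the spread between them may be technical.

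Malat1 is an abundant RNA retained in nuclear speckles, bodies rich in splicing factors. Its genomic neighbour Neat1 is the scaffold of paraspeckles, nuclear bodies built on the long Neat1 isoform together with proteins such as Nono, Sfpq and Pspc1. Gas5 and the Snhg genes are spliced RNAs whose introns release snoRNAs, which guide the chemical modification of ribosomal and other RNAs. Several of the spliced host RNAs begin with a run of pyrimidines, as messenger RNAs of ribosomal proteins do, and are degraded by nonsense-mediated decay when they are translated. Gas5 takes its name from growth-arrested cells, in which its spliced RNA accumulates.

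The starts of 4 snoRNA hosts are shown because a pyrimidine run there is the sequence feature these genes are known for. RefSeq promoter windows on build GRCm38.p6 were matched for 5 of the 7 genes, while Neat1 and Snhg6 are named only. Each line runs 50 bases before to 50 bases after the annotated start, 5′ to 3′ on the gene's strand. Capitals mark a run of C or T letters with a C followed by at least 4 more, lying within 10 bases of the start.
Gas5, chr1:161035116-161035215, plus strand: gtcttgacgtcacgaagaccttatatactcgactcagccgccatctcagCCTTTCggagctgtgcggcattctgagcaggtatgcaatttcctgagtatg
Snhg1, chr19:8723437-8723536, plus strand: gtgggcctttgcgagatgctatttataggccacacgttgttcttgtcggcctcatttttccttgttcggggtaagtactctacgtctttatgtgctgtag
Snhg12, chr4:132308628-132308727, plus strand: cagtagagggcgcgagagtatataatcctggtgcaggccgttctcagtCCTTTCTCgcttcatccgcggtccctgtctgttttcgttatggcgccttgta
Snhg8, chr3:123508287-123508386, minus strand: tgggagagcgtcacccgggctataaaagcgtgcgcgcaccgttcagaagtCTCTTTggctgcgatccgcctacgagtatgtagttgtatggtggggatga

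The Gas5 and Snhg8 windows above hold a C at the annotated start followed by at least 4 pyrimidines, a feature of 2.51% of 32851 promoter windows in the RefSeq table. A second, upstream Gas5 window and the Snhg1 window do not hold it. Within 10 bases of the start, the run was also found for Snhg12, and 30.7% of all windows hold it there. Among 15 other host genes with a window, which include the microRNA hosts Dleu2 and Mir17hg, Snhg7 had the run at the start. Within 10 bases of the start, 8 of these 15 had it. The letters GGAAA, the core of an NFAT site, were searched on both strands over the full windows of 250 bases before to 50 bases after the start. They occurred 1 and 2 times in the Gas5 windows, 1 time for Snhg1, 2 times each for Snhg8 and Snhg12 and 0 times for Malat1, while 61.3% of all windows hold them. The AP-1 letters TGANTCA and the E-box CACGTG were in none of the members' windows, against 7.81% and 7.15% of all windows. These matches describe letters and are not evidence of binding.

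On build mm10, as the authors' table lists them, Malat1 lies at chr19:5795690-5802673 and Neat1 at chr19:5824708-5845479, both on the minus strand. Gas5 lies at chr1:161034422-161038540 on the plus strand and Snhg6 at chr1:9941959-9944119 on the minus strand. Snhg1 is at chr19:8723475-8726444 on the plus strand, Snhg8 at chr3:123507552-123508405 on the minus strand and Snhg12 at chr4:132308623-132311025 on the plus strand. GENCODE M21 annotates 10 snoRNAs inside Gas5, 8 inside Snhg1, 5 inside Snhg12 and 1 each inside Snhg6 (Snord87) and Snhg8 (Snora24). Gas5 shares 428 bases with Zbtb37, Snhg6 shares 127 with Mcmdc2 and Malat1 shares 453 with Gm37376, each on the opposite strand. Whether counting used strand is not stated in the labels, and reads from these overlaps cannot be told apart, nor can the short and long isoforms of Neat1.

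Depth was estimated at about 19900000 to 38100000 reads per library from the spacing of low values. Nfatc1 was at 240.5, 245.2 and 253.3 CPM with NFAT2_CARIT, at 341.8, 336.1 and 395.5 CPM with NFAT2_CA and at 224.0, 228.3 and 188.1 CPM in Control, so that the groups did not overlap. Vector and endogenous Nfatc1 reads cannot be told apart in these values. All 7 CD4 T cell markers were listed, and their summed CPM was 5990 to 6100 with NFAT2_CARIT, 6290 to 6770 with NFAT2_CA and 9110 to 9710 in Control. Of the B cell markers 4 of 7 were listed (Cd79a, Cd79b, Ighm and Ighd), summing to 183 to 205, 206 to 211 and 412 to 423 CPM in NFAT2_CARIT, NFAT2_CA and Control libraries. The CD8 genes Cd8a and Cd8b1 summed to 22.6 to 24.0, 28.4 to 30.8 and 12.5 to 13.7 CPM in NFAT2_CARIT, NFAT2_CA and Control, 3 of 8 myeloid markers to at most 13.0 CPM in any library, the NK cell gene Eomes to at most 3.67 CPM and the erythroid gene Alas2 to at most 0.528 CPM. The part of these differences in the results below was not tested.

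NFAT2_CA replicate 3 stood apart from the other 8 libraries, and Malat1 and Neat1 were among the genes that set it apart. In this library 149 genes lay at least 1 on the log2(CPM + 1) scale above the mean of the other 2 NFAT2_CA libraries, 1.14% of the genes tested, against 3 to 11 genes (0.0229% to 0.084%) in each of the other 8 libraries under the same comparison. Malat1 and Neat1 each lay 1.80 above, with 28 and 27 genes farther above. The 5 snoRNA hosts did not move with them, lying between 0.28 and 0.05 below the other NFAT2_CA libraries. The 7 genes took 0.764% of the CPM total of this library, against 0.241% to 0.423% in the other 8.

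Long noncoding genes made up most of the 149. In NFAT2_CA replicate 3, 110 of 780 tested long noncoding genes (14.1%) lay at least 1 above, against 21 of 10939 protein-coding genes (0.192%). The same share of long noncoding genes was at most 0.385% in any other library. Their median distance from the other 2 libraries of the group was 0.3 in NFAT2_CA replicate 3, 0.18 in NFAT2_CARIT replicate 3 and 0.13 in Control replicate 3. In the remaining libraries it was -0.17 to 0.01. Malat1 and Neat1 lay 0.47 and 0.37 above in NFAT2_CARIT replicate 3. Of 8737 genes averaging at least 10 CPM with NFAT2_CA, 19 lay at least 1 above in NFAT2_CA replicate 3. Most of the 149 were thus less abundant genes, and the classes were not matched for expression level. Among genes averaging at least 10 CPM with NFAT2_CA, and leaving out gene models, the 6 farthest above in NFAT2_CA replicate 3 were Rn7s2 and Rn7s1, Kcnq1ot1, Neat1, Malat1 and Rn7sk. Rn7s1 and Rn7s2 encode the RNA of the signal recognition particle, and these near-identical copies share reads, at 31.7 CPM each in replicate 3, against 6.27 and 5.64 CPM in replicates 1 and 2. Kcnq1ot1, a nuclear antisense RNA of an imprinted locus, was at 58.1 CPM in replicate 3, against 17.3 and 12.8 CPM in replicates 1 and 2. Rn7sk, the RNA that holds the elongation factor P-TEFb inactive, was at 161.6 CPM in replicate 3, against 56.6 and 71.2 CPM in replicates 1 and 2. The 6 genes farthest below in the same library, Dtx3, Phyhd1, Tmem254c, Zcwpw1, Brms1 and Lgals4, lay 0.68 to 0.50 below. The cell type marker sums of this library were within the range of the other NFAT2_CA libraries or close to it, with B cell markers at 206 CPM, except Alas2, which was at 0.528 CPM in replicate 3, against 0.0373 and 0.126 CPM in replicates 1 and 2. What set the library apart was not tested. Means and fold changes of Malat1 and Neat1 are given with and without it, while the correlations below use all 9 libraries.

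**Figure D1:**
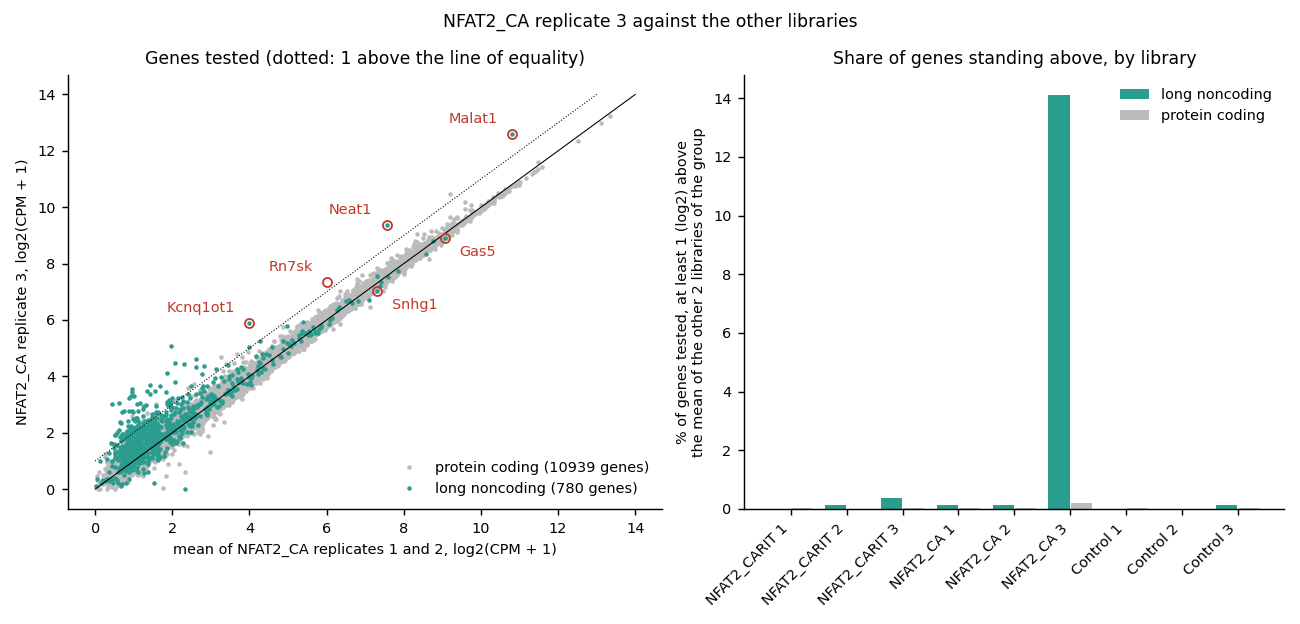
Left, log2(CPM + 1) of each tested gene in NFAT2_CA replicate 3 against the mean of NFAT2_CA replicates 1 and 2, with the solid line at equality and the dotted line 1 above it. Right, the percent of long noncoding and protein-coding genes lying at least 1 above the other 2 libraries of their group, in each library; the long noncoding bar of NFAT2_CA replicate 3 is at 14.1%, and no other bar passes 0.385%.

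Neat1 was higher with either NFAT2 vector than in Control, and its 3 Control values lay below all 6 others. It was at 200.4, 203.7 and 261.4 CPM with NFAT2_CARIT, at 176.5, 200.5 and 659.3 CPM with NFAT2_CA and at 49.0, 66.0 and 72.8 CPM in Control. Replicate 3 was far above the other NFAT2_CA libraries, while the remaining 2 sat within or just below the NFAT2_CARIT range. Over all genes tested, 73.1% had no overlap between NFAT2_CARIT and Control libraries, 68.3% none between NFAT2_CA and Control and 44.0% none between NFAT2_CARIT and NFAT2_CA, and the statements on overlap below stand against these shares. In bulk RNA, a change in the number of cells that hold a transcript and a change in its amount per cell cannot be told apart, here or below. The group means were 221.8 ± 34.3 CPM with NFAT2_CARIT, 345.4 ± 272 CPM with NFAT2_CA and 62.6 ± 12.3 CPM in Control (SD, n = 3 each). Without replicate 3 the NFAT2_CA mean was 188.5 ± 16.9 CPM (SD, n = 2).

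The ratio of Neat1 means was 3.54 for NFAT2_CARIT over Control. For NFAT2_CA over Control it was 5.52 with all libraries and 3.01 without replicate 3. On the log2(CPM + 1) scale the limma fold change was 1.82 ± 0.51 (SE) for NFAT2_CARIT against Control and 2.19 ± 0.51 for NFAT2_CA against Control. The SE is shared over the 9 libraries, and without NFAT2_CA replicate 3 these values were 1.82 ± 0.15 and 1.59 ± 0.17. Between the vectors, the Neat1 fold change for NFAT2_CARIT against NFAT2_CA was -0.38 ± 0.51 with all libraries and 0.23 ± 0.17 without replicate 3, so its sign rested on that library, and the groups overlapped either way. The comparisons with Control share the 3 Control libraries.

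Malat1, the most abundant of the 7, was higher with NFAT2_CARIT than in Control, whereas its NFAT2_CA values split. It was at 2272, 2368 and 3223 CPM with NFAT2_CARIT, at 1864, 1722 and 6225 CPM with NFAT2_CA and at 1468, 1719 and 1820 CPM in Control. Every NFAT2_CARIT value lay above every Control value. NFAT2_CA replicate 2 lay inside the Control range, replicate 1 just above it and replicate 3 above every other library. The group means were 2621 ± 523 CPM with NFAT2_CARIT, 3270 ± 2560 CPM with NFAT2_CA and 1669 ± 181 CPM in Control (SD, n = 3 each), and 1793 ± 100 CPM with NFAT2_CA without replicate 3 (SD, n = 2).

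The ratio of Malat1 means was 1.57 for NFAT2_CARIT over Control, and for NFAT2_CA over Control it was 1.96 with all libraries and 1.07 without replicate 3. The log2 fold change was 0.64 ± 0.50 for NFAT2_CARIT against Control, and without NFAT2_CA replicate 3 it stayed at 0.64 with an SE of 0.12. For NFAT2_CA against Control it was 0.71 ± 0.50 with all libraries and 0.11 ± 0.14 without replicate 3, with overlapping groups both times. NFAT2_CARIT against NFAT2_CA gave -0.07 ± 0.50 with all libraries and 0.53 ± 0.14 without replicate 3, where the groups no longer overlapped. With 1 library fewer, groups that do not overlap are more common, at 55.5% of all genes for this comparison and 75.4% for NFAT2_CA against Control. The order of the vectors in Malat1 thus rested on a single library. The library numbered 3 had the highest Malat1 and Neat1 in each of the 3 groups, and the labels do not say that the number marks a shared batch.

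**Figure D2:**
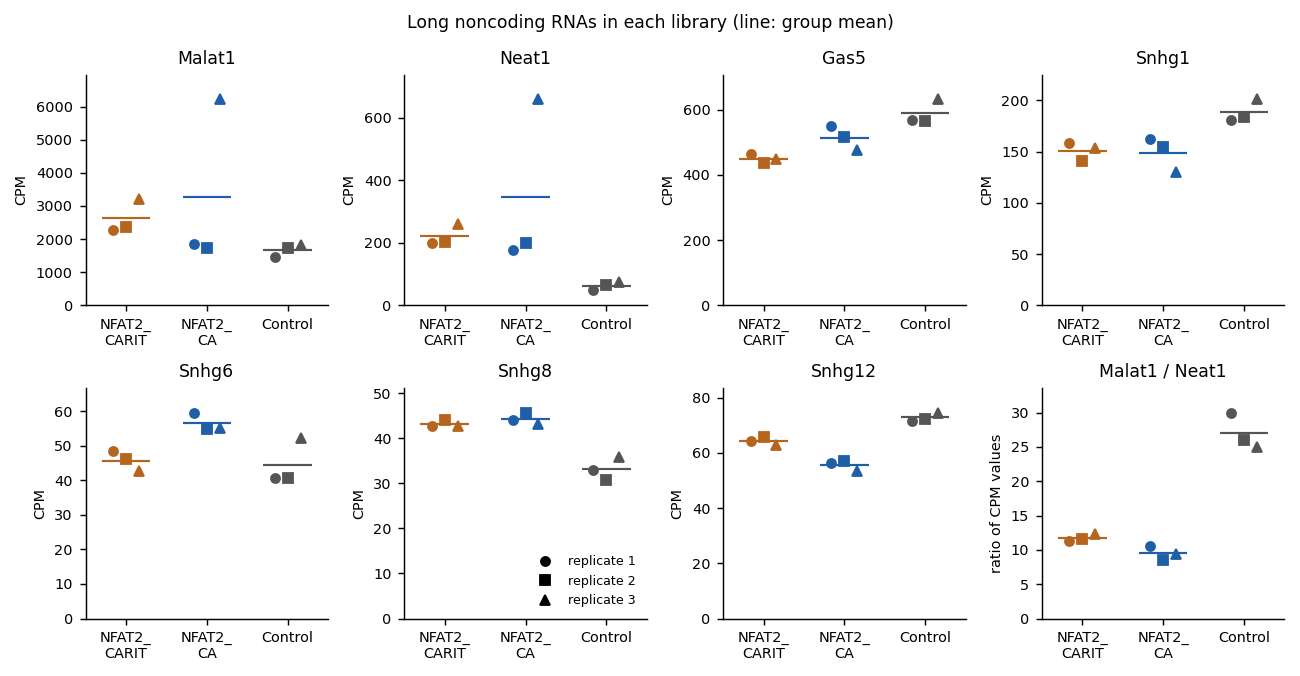
CPM of the 7 long noncoding RNAs in each library, and in the last panel the ratio of Malat1 to Neat1, by group; marker shape is the replicate number, the horizontal line is the group mean, and each panel has its own axis from 0. NFAT2_CA replicate 3 stands above the other libraries for Malat1 (6225 CPM) and Neat1 (659.3 CPM), but its Malat1 to Neat1 ratio of 9.44 lies between those of the other NFAT2_CA libraries.

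The ratio of Malat1 to Neat1 within a library was nearly the same in NFAT2_CA replicate 3 as in its group. The ratio of their CPM values was 11.3, 11.6 and 12.3 with NFAT2_CARIT, 10.6, 8.59 and 9.44 with NFAT2_CA and 30.0, 26.0 and 25.0 in Control. All 6 NFAT2 libraries lay below all Control libraries, and the NFAT2_CA values lay below the NFAT2_CARIT values. The means were 11.7 ± 0.51 with NFAT2_CARIT, 9.54 ± 1.01 with NFAT2_CA and 27.0 ± 2.65 in Control (SD, n = 3 each). Neat1 was therefore higher relative to Malat1 with either vector, a contrast that did not rest on NFAT2_CA replicate 3.

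Gas5, which is spliced into a host RNA for several box C/D snoRNAs, was lower with either vector than in Control. It was at 464.5, 435.5 and 448.1 CPM with NFAT2_CARIT, at 550.9, 515.6 and 476.3 CPM with NFAT2_CA and at 568.8, 565.6 and 632.7 CPM in Control. The 3 groups did not overlap, with NFAT2_CARIT lowest and NFAT2_CA in between. Its log2 fold change was -0.39 ± 0.06 for NFAT2_CARIT against Control and -0.20 ± 0.06 for NFAT2_CA against Control, where it was -0.14 ± 0.07 without NFAT2_CA replicate 3 and -0.12 after TMM scaling. NFAT2_CARIT against NFAT2_CA gave -0.19 ± 0.06.

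Snhg1, which carries 8 annotated snoRNAs and lies head to head with Slc3a2, was also lower with either vector. It was at 158.0, 140.4 and 153.2 CPM with NFAT2_CARIT, at 162.0, 154.1 and 130.3 CPM with NFAT2_CA and at 180.9, 183.7 and 201.2 CPM in Control. The NFAT2_CARIT and NFAT2_CA values overlapped, and all 6 lay below Control. The log2 fold change was -0.32 ± 0.08 for NFAT2_CARIT against Control, -0.34 ± 0.08 for NFAT2_CA against Control and 0.02 ± 0.08 for NFAT2_CARIT against NFAT2_CA.

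Snhg12, host of the box H/ACA snoRNAs Snora16a, Snora44 and Snora61 and of Snord99, had the least spread between replicates of the hosts lower in both vector groups. It was at 64.4, 65.7 and 62.9 CPM with NFAT2_CARIT, at 56.4, 57.2 and 53.4 CPM with NFAT2_CA and at 71.5, 72.4 and 74.6 CPM in Control. No values overlapped between groups, and here NFAT2_CA was lowest and NFAT2_CARIT in between, the reverse of their order for Gas5. The log2 fold change was -0.18 ± 0.06 for NFAT2_CARIT against Control, -0.38 ± 0.06 for NFAT2_CA against Control and 0.21 ± 0.06 for NFAT2_CARIT against NFAT2_CA. After TMM scaling the value for NFAT2_CARIT against Control was -0.08.

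Snhg8, host of the box H/ACA snoRNA Snora24, went the other way from Gas5, Snhg1 and Snhg12. It was at 42.8, 44.0 and 42.7 CPM with NFAT2_CARIT, at 44.0, 45.7 and 43.3 CPM with NFAT2_CA and at 33.0, 30.7 and 35.8 CPM in Control. All 6 NFAT2 libraries lay above all 3 Control libraries, and the NFAT2_CARIT and NFAT2_CA values overlapped. The log2 fold change was 0.37 ± 0.07 for NFAT2_CARIT against Control, 0.41 ± 0.07 for NFAT2_CA against Control and -0.04 ± 0.07 for NFAT2_CARIT against NFAT2_CA.

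Snhg6, host of Snord87, was higher with NFAT2_CA and close to Control with NFAT2_CARIT. It was at 48.4, 46.1 and 42.7 CPM with NFAT2_CARIT, at 59.7, 54.9 and 55.3 CPM with NFAT2_CA and at 40.7, 40.6 and 52.2 CPM in Control. NFAT2_CARIT overlapped Control, whose replicate 3 was well above its other libraries, and NFAT2_CA lay above every other library. The log2 fold change was 0.05 ± 0.09 for NFAT2_CARIT against Control, 0.35 ± 0.09 for NFAT2_CA against Control and -0.30 ± 0.09 for NFAT2_CARIT against NFAT2_CA.

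**Figure D3:**
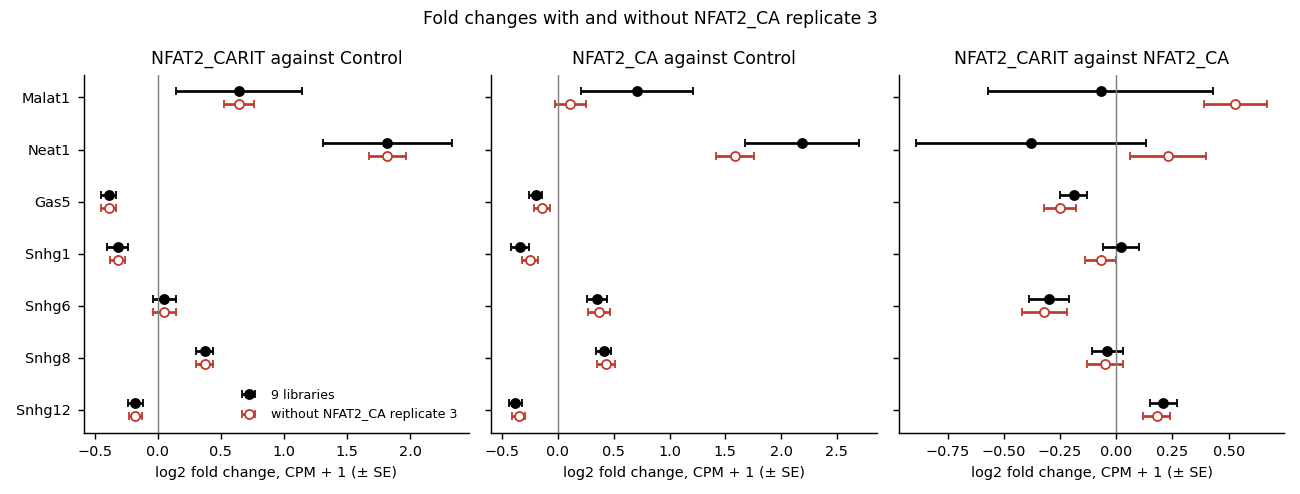
Log2 fold change of CPM + 1 (horizontal axis, with its own range in each panel) with its SE for each long noncoding RNA in the 3 comparisons; black points use all 9 libraries and open points leave out NFAT2_CA replicate 3. For NFAT2_CARIT against NFAT2_CA, Malat1 is at -0.07 with all libraries and at 0.53 without that library, while the 5 snoRNA hosts move by far less.

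Summed over the 5 hosts, the level was 778.2, 731.9 and 749.6 CPM with NFAT2_CARIT, 872.9, 827.6 and 758.6 CPM with NFAT2_CA and 894.9, 893.0 and 996.4 CPM in Control. Gas5 supplies most of this sum, and all 6 NFAT2 libraries lay below Control. The hosts also shifted against each other within libraries: the ratio of Gas5 to Snhg8 was 10.8, 9.89 and 10.5 with NFAT2_CARIT, 12.5, 11.3 and 11.0 with NFAT2_CA and 17.2, 18.4 and 17.7 in Control. Such a ratio does not depend on how a library is scaled. The ratio of Gas5 to Snhg1, 2 hosts lower in both vector groups, had a mean of 2.99 ± 0.095 with NFAT2_CARIT, 3.47 ± 0.17 with NFAT2_CA and 3.12 ± 0.038 in Control (SD, n = 3 each).

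Per kilobase of annotated exon, levels can be set beside each other across genes. In Control libraries Malat1 was highest at 239 ± 25.9 CPM per kilobase, followed by Gas5 at 157 ± 10.1 and Snhg1 at 63.5 ± 3.7 CPM per kilobase (SD, n = 3 each). Snhg8 at 39.0 ± 2.99 and Snhg6 at 38.7 ± 5.78 CPM per kilobase did not differ beyond their spread, and Snhg12 stood at 30.4 ± 0.66 CPM per kilobase. Neat1 was lowest at 3.01 ± 0.59 CPM per kilobase, and its annotated exons add up to 20771 bases. That length covers the long isoform, so the value understates Neat1 where reads come from the short isoform, and its rank is uncertain. With NFAT2_CARIT the order at the top and bottom was the same, with Malat1 at 375 ± 75, Gas5 at 120 ± 3.86 and Neat1 at 10.7 ± 1.65 CPM per kilobase. Snhg1 and Snhg8 then stood side by side at 50.7 ± 3.06 and 50.8 ± 0.85 CPM per kilobase with NFAT2_CARIT, and at 50.1 ± 5.56 and 52.2 ± 1.49 with NFAT2_CA. The annotated exons of Snhg1, Snhg8 and Snhg12 add up to the whole gene span, introns included, and those of Gas5 to 3760 of 4119 bases, so that these per-length values understate the spliced RNA and the order, Malat1 over Gas5 included, holds under this annotation.

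Counted by the limma fit over all genes, 5 of the 7 were called (adjusted p under 0.05) for NFAT2_CARIT against Control, 2 higher and 3 lower, where 70.3% of all genes tested were called, 29.2% higher and 41.1% lower. For NFAT2_CA against Control 6 were called, 3 higher and 3 lower, where 65.5% of all genes were called, 29.0% higher and 36.5% lower. For NFAT2_CARIT against NFAT2_CA 3 were called, Gas5 and Snhg6 lower and Snhg12 higher, where 28.6% of all genes were called, 16.7% lower and 11.9% higher. Since the genes were chosen with these contrasts known, nothing is read from these counts. Without NFAT2_CA replicate 3, Malat1 was also called for NFAT2_CARIT against Control and for NFAT2_CARIT against NFAT2_CA, and Gas5 was no longer called for NFAT2_CA against Control. Without that library 71.8% of all genes were called for NFAT2_CARIT against Control, 63.7% for NFAT2_CA against Control and 25.8% for NFAT2_CARIT against NFAT2_CA. Neat1 lost its call for NFAT2_CARIT against Control without NFAT2_CARIT replicate 3, or without Control replicate 1, and Snhg6 gained one there without Control replicate 3. Between the vectors, 1 member in place of 3 was called without NFAT2_CA replicate 1 (Snhg12), NFAT2_CARIT replicate 2 (Snhg6) or NFAT2_CARIT replicate 3 (Snhg12), and Gas5 lost its call without NFAT2_CA replicate 2.

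The authors' deposited table gives log2 ratios of group means that are within 0.01 of the limma values for the 5 hosts in every comparison. For Malat1 and Neat1 the authors' deposited table differs where NFAT2_CA enters: it lists 0.97 and 2.46 for NFAT2_CA against Control, where the limma values on the log scale were 0.71 and 2.19. A ratio of means gives more weight to the high replicate than a difference of mean logs does.

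Of 11 other host RNAs tested, 8 fell and 3 rose with NFAT2_CARIT against Control (median log2 fold change -0.43, against -0.09 over all genes tested, of which 41.1% were called lower and 29.2% higher). With NFAT2_CA against Control 8 fell, 2 rose and 1 was not called (median -0.32, against -0.06 over all genes, of which 36.5% were called lower and 29.0% higher). Besides snoRNA hosts, this list holds Dleu2 and Mir17hg, which carry microRNAs. Dleu2 rose and Mir17hg fell in both comparisons. Mir17hg, among the 8 both times, passed the filter through Control libraries alone, and without it 7 of 10 fell in each comparison. Snhg17 fell to 8.21 ± 0.27 CPM with NFAT2_CARIT and 10.0 ± 0.72 CPM with NFAT2_CA, against 22.7 ± 1.39 CPM in Control (SD, n = 3 each). Its log2 fold changes were -1.36 ± 0.09 and -1.11 ± 0.09 (limma adjusted p = 1.1e-09 and 1.8e-08). Snhg16 fell by a similar amount, to 20.9 ± 2.2 CPM with NFAT2_CARIT and 23.7 ± 1.25 CPM with NFAT2_CA, against 54.2 ± 6.29 CPM in Control (limma adjusted p = 1.5e-09 and 1.1e-08). Mir17hg, which carries the oncogenic miR-17 microRNA cluster, was at 0.487 ± 0.17 CPM with NFAT2_CARIT, 0.478 ± 0.41 CPM with NFAT2_CA and 1.41 ± 0.20 CPM in Control.

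The abundant hosts Zfas1 and Epb41l4aos fell more with NFAT2_CARIT than with NFAT2_CA in estimate. Zfas1 was at 133.1 CPM with NFAT2_CARIT, 166.6 CPM with NFAT2_CA and 209.7 CPM in Control, with log2 fold changes of -0.65 ± 0.08 and -0.32 ± 0.08 against Control. The difference between the vectors was itself called for Zfas1, at -0.32 ± 0.08 (limma adjusted p = 0.0042), and was not called for Epb41l4aos, at -0.20 ± 0.07 (limma adjusted p = 0.06). Among the hosts that rose, Dleu2, host of the miR-15a and miR-16-1 microRNAs, reached 3.81 ± 0.54 CPM with NFAT2_CARIT and 3.22 ± 2.01 CPM with NFAT2_CA, against 1.16 ± 0.24 CPM in Control (limma adjusted p = 0.0011 and 0.0081). NFAT2_CA replicate 3 was the highest library for Dleu2, at 5.52 CPM, against 1.82 and 2.3 CPM in NFAT2_CA replicates 1 and 2, and both calls held without it. Snhg3 also rose in both comparisons, by 0.38 ± 0.12 and 0.64 ± 0.12, and Snhg15 rose with NFAT2_CARIT against Control, by 0.31 ± 0.10 (limma adjusted p = 0.0093). In the NFAT2_CARIT comparison the Snhg3 call was lost without NFAT2_CARIT replicate 1 and the Snhg15 call without Control replicate 1 (adjusted p = 0.068 and 0.059).

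Of 19 genes of snoRNP proteins and their assembly factors tested, 14 fell, 0 rose and 5 were not called for NFAT2_CARIT against Control (73.7% called). Over all genes 70.3% were called, 41.1% lower, and the median log2 fold change was -0.61 in the list, against -0.09 over all genes. For NFAT2_CA against Control 9 fell, 2 rose and 8 were not called (57.9% called, against 65.5% of all genes; median -0.28, against -0.06). Without Shq1, which passed the filter through Control libraries alone, 13 and 8 of 18 fell. Dkc1, the pseudouridine synthase dyskerin, fell to 9.48 ± 0.35 CPM with NFAT2_CARIT and 10.3 ± 0.28 CPM with NFAT2_CA, against 37.1 ± 1.95 CPM in Control, a log2 fold change of -1.86 ± 0.08 and -1.75 ± 0.08 (limma adjusted p = 5.3e-12 and 1.3e-11). Nop56, a core protein of box C/D particles, fell by 1.27 and 1.18 on the log2 scale (limma adjusted p = 4.1e-10 and 1.3e-09). Nolc1, which chaperones snoRNPs between the nucleolus and Cajal bodies, fell to 12.7 ± 1.21 CPM with NFAT2_CARIT and 15.9 ± 1.02 CPM with NFAT2_CA, against 32.6 ± 3.82 CPM in Control (limma adjusted p = 5.1e-09 and 1.7e-07). The assembly factor Naf1 fell with either vector (limma adjusted p = 2.8e-06 and 0.012). Naf1 was at 2.82 ± 0.56 CPM with NFAT2_CARIT, 4.85 ± 0.19 CPM with NFAT2_CA and 6.77 ± 0.55 CPM in Control. The dyskerin chaperone Shq1 was at 0.477 ± 0.18 CPM with NFAT2_CARIT, 0.813 ± 0.14 CPM with NFAT2_CA and 2.01 ± 0.47 CPM in Control.

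Between the vectors, 7 of the 19 snoRNP genes were lower with NFAT2_CARIT than with NFAT2_CA and 12 were not called, where 28.6% of all genes were called. The 7 were Nop58, Nop10, Naf1, Znhit6, Ruvbl2, Nolc1 and Coil, at log2 fold changes of -0.63 (Naf1) to -0.26 (Ruvbl2). Leaving out NFAT2_CA replicate 2 left 3 of them called, and leaving out NFAT2_CARIT replicate 2 left 4. Znhit6 also lost its call without NFAT2_CA replicate 3. Nop58, Nop10 and Naf1 kept the call in every refit. Nop10, a small H/ACA core protein, was at 15.7 CPM with NFAT2_CARIT, 20.2 CPM with NFAT2_CA and 31.9 CPM in Control, the same order as Gas5.

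Protein-coding genes that host snoRNAs, mostly ribosomal proteins and translation factors, were mixed in direction. For NFAT2_CARIT against Control 5 of 24 rose, 6 fell and 13 were not called (45.8% called, against 70.3% of all genes), and for NFAT2_CA against Control 4 rose, 5 fell and 15 were not called (37.5%, against 65.5%). Without Control replicate 3, 15 of them were called for NFAT2_CA against Control. Dkc1 and Nop56, the largest falls, are hosts and snoRNP proteins at once. Wdr43, a factor of early ribosomal RNA processing, fell to 55.2 ± 2.1 CPM with NFAT2_CARIT and 63.7 ± 3.19 CPM with NFAT2_CA, against 99.4 ± 2.58 CPM in Control (limma adjusted p = 2.7e-09 and 9.5e-08). The translation initiation helicase Eif4a1 fell with either vector (limma adjusted p = 1.9e-06 and 3.4e-05). Eif4a1 was at 42.2 ± 2.13 CPM with NFAT2_CARIT, 46.3 ± 3.04 CPM with NFAT2_CA and 63.9 ± 4.68 CPM in Control. Genes of ribosomal proteins have many processed copies in the genome, so the values of those in this list are uncertain.

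Proteins of the paraspeckle, the body built on Neat1, were mixed in direction. Of 16 tested, 4 rose, 3 fell and 9 were not called for NFAT2_CARIT against Control (median -0.05), and 3 rose, 4 fell and 9 were not called for NFAT2_CA against Control (median -0.11). The share called was 43.8% in both, against 70.3% and 65.5% of all genes. Without NFAT2_CA replicate 2 or without Control replicate 2, 4 in place of 7 were called in the NFAT2_CA comparison. Nono and Sfpq, the core proteins of the body, were not called, Nono at -0.09 ± 0.06 in both comparisons and Sfpq at -0.12 ± 0.08 and -0.13 ± 0.08. Their partner Pspc1 rose to 21.1 ± 1.42 CPM with NFAT2_CARIT and 23.1 ± 4.31 CPM with NFAT2_CA, against 15.8 ± 2.38 CPM in Control (limma adjusted p = 0.0082 and 0.0018). The RNA-binding protein Hnrnph3 rose to 58.0 ± 4.13 CPM with NFAT2_CARIT and 45.9 ± 2.7 CPM with NFAT2_CA, against 33.3 ± 2.72 CPM in Control, the largest change of the list with NFAT2_CARIT (limma adjusted p = 1.2e-07 and 6.4e-05).

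Cleavage factor subunits, which set the site of polyadenylation, went in opposite directions within the paraspeckle list. Nudt21 fell to 19.7 ± 1.01 CPM with NFAT2_CARIT and 21.4 ± 1.79 CPM with NFAT2_CA, against 27.5 ± 2.29 CPM in Control (limma adjusted p = 0.00015 and 0.0019). Its partner Cpsf6 rose to 87.9 ± 5.4 CPM with NFAT2_CA, against 67.8 ± 3.83 CPM in Control (limma adjusted p = 0.00016), and to 87.5 CPM with NFAT2_CARIT (limma adjusted p = 0.00017).

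Nuclear speckle proteins, which share their compartment with Malat1, were likewise mixed. Of 19 tested, 4 rose, 7 fell and 8 were not called for NFAT2_CARIT against Control (median 0.00), and 3 rose, 7 fell and 9 were not called for NFAT2_CA against Control (median -0.06). The shares called were 57.9% and 52.6%, against 70.3% and 65.5% of all genes. The splicing factor Srsf2 fell to 89.4 ± 6.63 CPM with NFAT2_CARIT and 92.0 ± 5.41 CPM with NFAT2_CA, against 142.7 ± 8.79 CPM in Control (limma adjusted p = 2.6e-07 and 6.4e-07). Its relative Srsf6 fell to 80.4 ± 4.41 CPM with NFAT2_CARIT and 82.0 ± 3.73 CPM with NFAT2_CA, against 115.0 ± 11.6 CPM in Control (limma adjusted p = 9.8e-06 and 2.1e-05). The speckle scaffold Son fell with NFAT2_CA to 480.3 ± 19 CPM, against 632.1 ± 19.6 CPM in Control (limma adjusted p = 2.9e-05), as did the splicing-associated protein Acin1, to 252.9 ± 10.8 CPM with NFAT2_CA, against 337.0 ± 10.9 CPM in Control (limma adjusted p = 4.2e-05). The kinase Clk1, which phosphorylates these splicing factors, rose with either vector (limma adjusted p = 1.8e-06 and 0.0014). Clk1 was at 765.2 ± 11.4 CPM with NFAT2_CARIT, 641.6 ± 4.54 CPM with NFAT2_CA and 531.6 ± 51.3 CPM in Control. The splicing coactivator Srrm1 also rose with either vector (limma adjusted p = 2.4e-06 and 0.00058). Srrm1 was at 670.6 ± 44.5 CPM with NFAT2_CARIT, 578.1 ± 26.6 CPM with NFAT2_CA and 467.1 ± 29.0 CPM in Control.

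Factors of nonsense-mediated decay, which degrades several spliced host RNAs, moved in both directions. Of 16 tested, 4 rose, 6 fell and 6 were not called for NFAT2_CARIT against Control (median -0.02), and 5 rose, 6 fell and 5 were not called for NFAT2_CA against Control (median -0.11). The shares called, 62.5% and 68.8%, were near the 70.3% and 65.5% of all genes. Without NFAT2_CA replicate 1, 7 were called in the NFAT2_CA comparison. Smg6, the endonuclease of the pathway, rose to 225.4 ± 6.18 CPM with NFAT2_CARIT and 258.5 ± 22.0 CPM with NFAT2_CA, against 118.5 ± 10.8 CPM in Control (limma adjusted p = 9.5e-09 and 1.1e-09). Smg1, the kinase that activates the helicase Upf1, fell to 344.8 ± 37.1 CPM with NFAT2_CARIT and 355.8 ± 66.1 CPM with NFAT2_CA, against 519.7 ± 41.4 CPM in Control (limma adjusted p = 0.0014 and 0.0023). The decapping partner Pnrc2 fell to 106.8 ± 0.49 CPM with NFAT2_CARIT and 123.2 ± 7.06 CPM with NFAT2_CA, against 176.9 ± 12.7 CPM in Control (limma adjusted p = 3.4e-08 and 2.1e-06). The cap-binding protein gene Ncbp1 fell by 0.58 and 0.46 on the log2 scale (limma adjusted p = 2.9e-07 and 4.3e-06).

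Other named long noncoding RNAs were also mixed. Of 16 tested, 1 rose, 5 fell and 10 were not called for NFAT2_CARIT against Control (median -0.18), and 2 rose, 3 fell and 11 were not called for NFAT2_CA against Control (median 0.09). The shares called were 37.5% and 31.2%, against 70.3% and 65.5% of all genes. Without Ptprv, a receptor tyrosine phosphatase gene in mouse that stood in this list, 1 rose and 4 fell with NFAT2_CARIT, and 1 rose and 3 fell with NFAT2_CA. The RNA of 2900097C17Rik rose to 415.7 ± 13.2 CPM with NFAT2_CARIT and 435.6 ± 11.1 CPM with NFAT2_CA, against 176.1 ± 17.4 CPM in Control (limma adjusted p = 8.5e-11 and 5.1e-11). Tug1 fell to 93.7 ± 16.0 CPM with NFAT2_CARIT and 98.0 ± 6.84 CPM with NFAT2_CA, against 127.4 ± 6.21 CPM in Control (limma adjusted p = 0.001 and 0.0041). Oip5os1, the mouse Cyrano RNA, fell with either vector (limma adjusted p = 1.9e-07 and 0.00059). Oip5os1 was at 91.0 ± 5.12 CPM with NFAT2_CARIT, 116.7 ± 8.44 CPM with NFAT2_CA and 145.8 ± 8.55 CPM in Control. Pvt1, a neighbour of Myc, also fell with either vector (limma adjusted p = 0.0045 and 0.0086). Pvt1 was at 10.85 ± 1.35 CPM with NFAT2_CARIT, 11.1 ± 1.2 CPM with NFAT2_CA and 14.7 ± 1.71 CPM in Control. Ptprv itself went in opposite directions, falling to 13.0 ± 2.49 CPM with NFAT2_CARIT and rising to 26.4 ± 1.51 CPM with NFAT2_CA, against 20.3 ± 1.08 CPM in Control, and the difference between the vectors was -0.98 on the log2 scale (limma adjusted p = 6.8e-06).

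**Figure D4:**
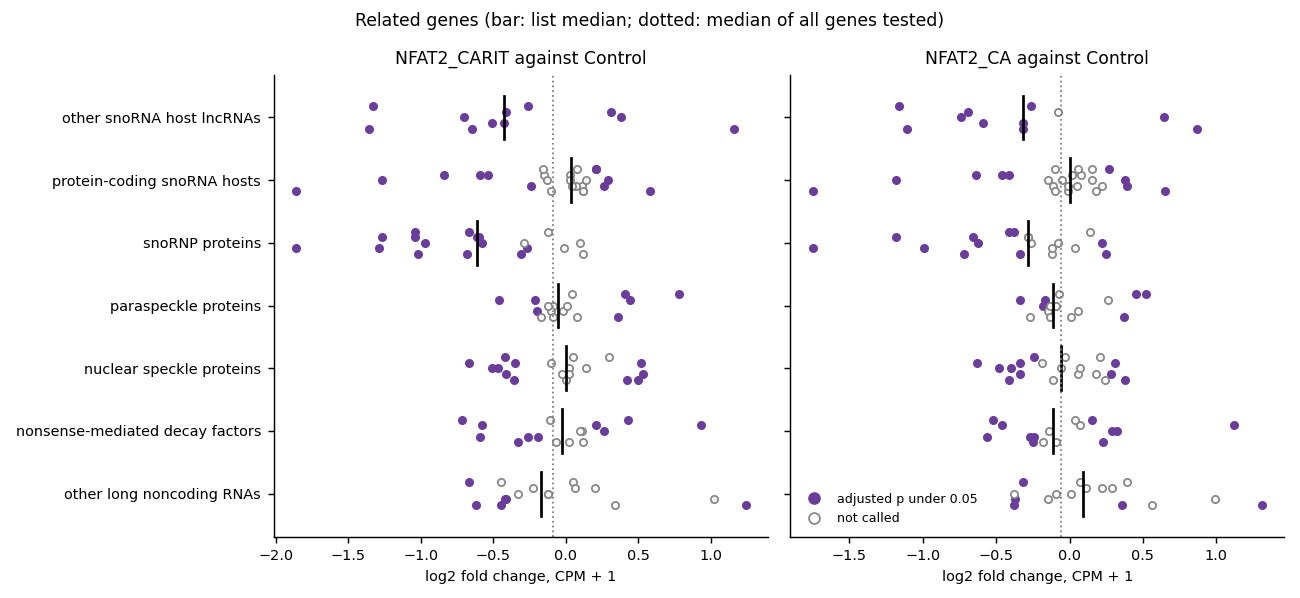
Log2 fold change of CPM + 1 for each tested gene of 7 lists of related genes in the comparisons with Control; filled points have a limma adjusted p under 0.05, black bars are list medians and the dotted line is the median of all genes tested. The snoRNP protein list has its median at -0.61 for NFAT2_CARIT against Control and at -0.28 for NFAT2_CA against Control, and the paraspeckle list lies near the dotted line in both.

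The nearest listed genes on either side of the 7 moved in both directions. Of 12 neighbours tested, 2 rose, 6 fell and 4 were not called for NFAT2_CARIT against Control, and 2 rose, 4 fell and 6 were not called for NFAT2_CA against Control. That is 66.7% called with NFAT2_CARIT, against 70.3% of all genes, and 6 of 12 with NFAT2_CA, against 65.5% of all genes. Without Prss12, which passed the filter through Control libraries alone, 5 and 3 of 11 fell. Slc3a2, the heavy chain of several amino acid transporters, starts 105 bases from the start of Snhg1 on the opposite strand. It rose to 393.9 ± 19.3 CPM with NFAT2_CARIT and 260.9 ± 16.4 CPM with NFAT2_CA, against 90.4 ± 0.71 CPM in Control (log2 fold changes 2.11 ± 0.06 and 1.52 ± 0.06, limma adjusted p = 2.6e-14 and 1.8e-12), while Snhg1 was lower in the same libraries. The other neighbour of Snhg1, the ribosome assembly gene Wdr74, fell by 0.73 and 0.59 on the log2 scale (limma adjusted p = 3e-06 and 3.3e-05).

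Next to Neat1, the flanking gene was lower with both vectors. Frmd8, 4223 bases upstream of Neat1 on the same strand, fell to 248.7 ± 11.7 CPM with NFAT2_CARIT and 214.0 ± 4.91 CPM with NFAT2_CA, against 294.9 ± 21.7 CPM in Control (limma adjusted p = 0.0024 and 7.1e-06), and the first of these calls was lost after TMM scaling (adjusted p = 0.074). The gene model Gm37376, which overlaps Malat1, was at 2.68 ± 1.87 CPM with NFAT2_CARIT, 2.89 ± 3.06 CPM with NFAT2_CA and 2.36 ± 1.52 CPM in Control and was not called.

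Zbtb37, which overlaps Gas5 on the other strand, was not called, at 32.6 ± 6.62 CPM with NFAT2_CARIT, 36.4 ± 14.6 CPM with NFAT2_CA and 34.3 ± 2.22 CPM in Control. In NFAT2_CA replicate 3 it lay 0.90 on the log2 scale above the other NFAT2_CA libraries, whereas Gas5 lay 0.16 below. Cops5, a subunit of the COP9 signalosome 80482 bases from Snhg6, was not called either. Sgk3, a kinase gene 41113 bases from Snhg6, fell to 3.54 ± 0.92 CPM with NFAT2_CARIT, against 9.54 ± 1.11 CPM in Control (limma adjusted p = 7.1e-07), and was not called with NFAT2_CA at 8.61 ± 0.65 CPM. The difference between the vectors was -1.10 ± 0.14 (limma adjusted p = 2.1e-05). Beside Snhg8, the protease gene Prss12 was at 0.469 ± 0.12 CPM with NFAT2_CARIT, 0.647 ± 0.35 CPM with NFAT2_CA and 2.23 ± 0.47 CPM in Control. On the other side, the gene model Gm4617, 877262 bases away, fell by 0.53 and 0.41 on the log2 scale (limma adjusted p = 2.2e-05 and 0.00032). Trnau1ap, a selenocysteine tRNA-associated protein gene beside Snhg12, was at -0.23 ± 0.07 for NFAT2_CARIT against Control (limma adjusted p = 0.013), a call lost after TMM scaling, after quantile normalization and without NFAT2_CARIT replicate 3. Serpinc1, beside Gas5, and Rab42, beside Snhg12, stayed below the filter.

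Genes whose pattern over the 9 libraries was most like each RNA were ranked by Pearson's r of log2(CPM + 1). The libraries share their groups, so that a group difference alone gives a high r, and these values are descriptions. Nearest to Malat1 were Snapc3, a factor for small nuclear RNA transcription (r = 0.986), Lncpint (0.970) and Kcnq1ot1 (0.960). Lncpint, a long noncoding RNA, was at 10.2 CPM in NFAT2_CA replicate 3, against 1.41 and 1.63 CPM in replicates 1 and 2, so that this library weighs on the likeness. Nearest to Neat1 were Evi5 (0.984), Tmbim1 (0.974) and the ribosomal protein gene Rpl23 (0.967), each lowest in the 3 Control libraries and highest in NFAT2_CA replicate 3.

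For the hosts, the highest r with Gas5 belonged to the proteasome assembly gene Psmg4 (0.984), the RNA polymerase III subunit gene Polr3k (0.980) and Atg9b (0.978). Psmg4 was at 6.94, 5.68 and 5.81 CPM with NFAT2_CARIT, 9.26, 8.17 and 7.25 CPM with NFAT2_CA and 12.0, 11.5 and 14.5 CPM in Control, the same order of groups as Gas5. Snhg1 was nearest to Wdr45 and the mitochondrial ribosomal protein gene Mrpl13 (both 0.979) and the zinc transporter gene Slc39a1 (0.971). Snhg6 was nearest to the proteasome subunit gene Psmd14 (0.973), the DNA repair gene Apex1 (0.959) and the T cell receptor complex gene Cd3d (0.951). Snhg8 was nearest to the copper chaperone gene Cox17 and the mevalonate kinase gene Mvk (both 0.990) and to Nudt2 (0.989). Snhg12 was nearest to the protein kinase A regulatory subunit gene Prkar1a (0.991), Emp3 (0.984) and Tle5 (0.982).

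Among the 7 themselves, Malat1 and Neat1 had an r of 0.861, and Gas5 and Snhg1 an r of 0.853 over the 9 libraries. Neat1 ran opposite to Snhg1 (r = -0.908) and Snhg12 (r = -0.853). Snhg8 ran with Neat1 (r = 0.816) and opposite to Snhg12 (r = -0.795), although both are snoRNA hosts. Gas5 and Snhg6 had an r of 0.076.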

How the data were processed

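The deposited expression values are CPM: on the file, the sum over 16500 genes is the same in each library, and 0.0001 appears to have been added throughout, since no value is smaller. The authors' deposited comparison table holds p-values with a step-up false discovery rate, ratios and log2 ratios, per the file headers. Partek 10, DESeq2 and the build mm10 are named in the submitters' processing notes, without their roles. Aligner, counter, annotation and use of strand were not given in the sources used here.

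Depth was estimated from the spacing of low values. Reads were not rebuilt, since the share of values under 1 CPM lying within 0.1 read of a whole read was 81.9% to 84.7%. The 63 values of the 7 RNAs rest on about 774 to 147096 reads each, a counting error of at most 3.60%, which covers counting only. No replicate pair was a duplicate: the median chi-square per gene between replicates was 1.27 to 2.99.

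For tests, log2(CPM + 1) of all 9 libraries entered limma 3.58.1 (R 4.3.3), which fitted 3 group means with a robust, trended variance prior. Adjustment by Benjamini-Hochberg ran over the 13096 genes reaching 1 CPM in at least 3 libraries. A gene was called at an adjusted p under 0.05. Fold changes on this scale understate changes of genes near 1 CPM. In the text, a ± after a fold change is an SE and a ± after a mean is an SD with n = 3, unless stated otherwise. Where 2 fold changes or adjusted p follow each other, the first is for NFAT2_CARIT against Control and the second for NFAT2_CA against Control. Python 3.11.15 with NumPy 2.4.6, pandas 2.3.3 and matplotlib 3.10.9 did the rest. Exon lengths, snoRNAs and overlaps came from GENCODE M21, which ends each of the 7 genes 1 base before the authors' table does.

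The 7 RNAs, the lists and the tests were chosen with earlier results of these data known. Named were, in each list, the 4 called genes with the largest change in each comparison with Control, every neighbour, the 3 genes with the highest r and the 6 genes farthest above and below in NFAT2_CA replicate 3, leaving out gene models. Some genes that this rule names are not reported here. Snhg3, Snhg15, Zfas1, Epb41l4aos, Nono, Sfpq, Snhg7, Lncpint as an example, and the genes named between the vectors fall outside that rule and were chosen with their values known. Alternatives tried were other pseudocounts (0.5 and 5), dropping the filter or raising it to 10 CPM, scaling by TMM or by quantiles, fitting just the 6 libraries of a comparison, a block for replicate number, array quality weights, the authors' deposited calls and each library left out in turn.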

Additional observations from a re-analysis of the deposited data

How the results depend on the processing

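Of 86 called results for genes outside the 7 RNAs (those of the naming rule, Zfas1, Epb41l4aos, Snhg3 and Snhg15, and the snoRNP genes and Ptprv between the vectors), 77 kept direction and call in every refit that gave a value, 9 lost the call in at least 1, and none reversed. The authors' deposited table calls fewer genes (3602 for NFAT2_CA against Control, 4216 for NFAT2_CARIT against Control and 468 for NFAT2_CARIT against NFAT2_CA, against 8577, 9202 and 3743 here). In the order other hosts, snoRNP, paraspeckle, decay factors, other long noncoding RNAs and neighbours, it calls 3, 3, 0, 4, 1 and 3 for NFAT2_CA against Control, and 3, 5, 2, 5, 3 and 4 for NFAT2_CARIT against Control. For NFAT2_CARIT against NFAT2_CA it calls 1 other long noncoding RNA and 1 neighbour and 0 in each other list. A filter of 10 CPM left 6 other hosts called for NFAT2_CA against Control, and 7 other hosts and 8 snoRNP genes for NFAT2_CARIT against Control, because fewer genes were tested. Array quality weights called 15 protein-coding hosts for NFAT2_CA against Control, and 7 other hosts, 5 protein-coding hosts and 7 decay factors for NFAT2_CARIT against NFAT2_CA, where the 6 libraries alone gave 2 protein-coding hosts and quantile normalization 4 snoRNP genes. TMM scaling moved the fold change of Snhg12 to -0.31 for NFAT2_CA against Control, and for NFAT2_CARIT against Control it moved Gas5 to -0.29, Snhg1 to -0.22 and Snhg12 to -0.08. It took away the calls of Snhg12 there, of Gas5 for NFAT2_CA against Control and of Gas5 for NFAT2_CARIT against NFAT2_CA, and the share of higher genes among those called became 49.6% in place of 41.5% (NFAT2_CARIT against Control). At a pseudocount of 5, 30 genes in place of 149 lay at least 1 above in NFAT2_CA replicate 3. Leaving out each library in turn, the calls for NFAT2_CA against Control ranged over 9 to 15 protein-coding hosts, 4 to 9 paraspeckle genes and 7 to 12 decay factors. For NFAT2_CARIT against NFAT2_CA they ranged over 0 to 3 protein-coding hosts, 3 to 7 snoRNP, 1 to 2 paraspeckle and 1 to 3 nuclear speckle genes and 2 to 5 other long noncoding RNAs, while the fold change of Malat1 ran from -0.40 to 0.53 and that of Neat1 from -0.72 to 0.23. Deviations of same-numbered libraries had correlations of -0.07 to 0.26, with 1 of 9 above 0.1, against -0.28 to 0.23 for different numbers. The highest, 0.26, was between NFAT2_CA replicate 3 and NFAT2_CARIT replicate 3. These correlations cannot decide whether the numbers mark a shared batch. With the replicate number as a block, 9178, 8562 and 3544 genes were called for NFAT2_CARIT against Control, NFAT2_CA against Control and NFAT2_CARIT against NFAT2_CA, the last with 1 paraspeckle gene and without Gas5. Apart from the filter, the cause of these changes was not tested. With 3 libraries a group, whose independence is not stated, Malat1 and Neat1 levels with NFAT2_CA remain uncertain.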
